A study of Homo sapiens with 12 samples.

Results

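The comparison described here was the addition of TCE-5002, an inhibitor of the histone demethylase KDM7A, to C4-2 prostate cancer cells that already received namoline, which inhibits another histone demethylase, KDM1A. The libraries were chosen by title and comprised 4 of the 12 RNA-seq libraries of the study, 2 from cells with namoline and 2 from cells with namoline and TCE-5002 (combination). C4-2 (LNCaP:C42 in the labels) is a castration-resistant line derived from LNCaP, an androgen-sensitive human prostate cancer line. The whole study asked how both demethylases act on androgen-regulated transcription in these lines, and its other libraries enter only alternative fits.

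All 4 libraries came from C4-2 cells grown in hormone-depleted medium and given the synthetic androgen R1881 at 1 nM and namoline at 50 µM for 72 h. These treatments come from the titles and the study's methods. The treatment protocol in the labels describes siRNA instead, which the methods give for a separate set of samples and no title names. By title the combination differed only by TCE-5002. Its dose is uncertain, since the design text names 100 µM and the methods section 50 µM. Both exceed the inhibitory concentrations that the study cites for KDM7A, PHF8 and KDM2A and for growth of HeLa cells. Through which target any change came was not tested. C4-2 is 1 line, and neither inhibitor's activity on its enzyme can be read from RNA. Each group held 2 libraries, described by the study as biological replicates, so p-values rest on the spread of 2 samples a group and on what is shared across genes.

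KDM1A removes methyl groups from lysine 4 or lysine 9 of histone H3 with a flavin cofactor and works in repressive CoREST complexes and, in prostate cells, as a coregulator of androgen-driven transcription. KDM7A belongs with PHF8 and PHF2 to a family of iron-dependent demethylases that bind trimethylated lysine 4 of H3 through a PHD finger and remove repressive marks from lysine 9 or lysine 27. Inhibitors of either class can change transcription by leaving marks in place, which these libraries do not measure. In prostate cancer cells both classes have been tied to androgen response, proliferation and survival.

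Library totals were even, from 17416786 to 18336820 counts over genes, and replicates correlated across genes at r = 0.9919 (namoline) and 0.993 (combination) (Pearson's r of log2 CPM, a description, since genes are not replicates). Of 9770 genes at or above 10 CPM, 7 differed at least 2-fold between the namoline libraries and 6 between the combination libraries. The share of counts from the mitochondrial genome was 8.81% and 10.1% with namoline and 6.84% and 7.48% with the combination. Epithelial markers fitted the label: EPCAM was at 145 and 145 CPM with namoline and 107 and 113 CPM with the combination, and 2 of 6 basal, 2 of 13 neuroendocrine and 2 of 6 leukocyte markers passed the filter on low counts. CPM is the count divided by the scaled library total, the usual measure of a gene's share of a library.

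Adding TCE-5002 to namoline moved about as many genes up as down. Of 16503 genes tested, 2406 were higher and 2447 lower in the combination at an adjusted p-value under 0.05 and at least 2-fold (edgeR's quasi-likelihood F test, adjusted across all of these genes by the Benjamini-Hochberg method). A gene that meets both criteria is termed called, a number given for a gene's rise or fall without a unit is its log2 fold change, and where a pair of CPM values is set against another the namoline libraries come first, replicate 1 before replicate 2. These were 29.4% of the genes tested, 14.6% higher and 14.8% lower, and a list of genes is read against those shares. The median log2 fold change of all genes tested was 0.01. Large changes were mostly upward: 265 genes were higher by at least 8-fold and 61 lower. In each of the 4853 called genes, both combination libraries lay on the same side of both namoline libraries, which was also true of 84.2% of all genes tested.

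**Figure D1:**
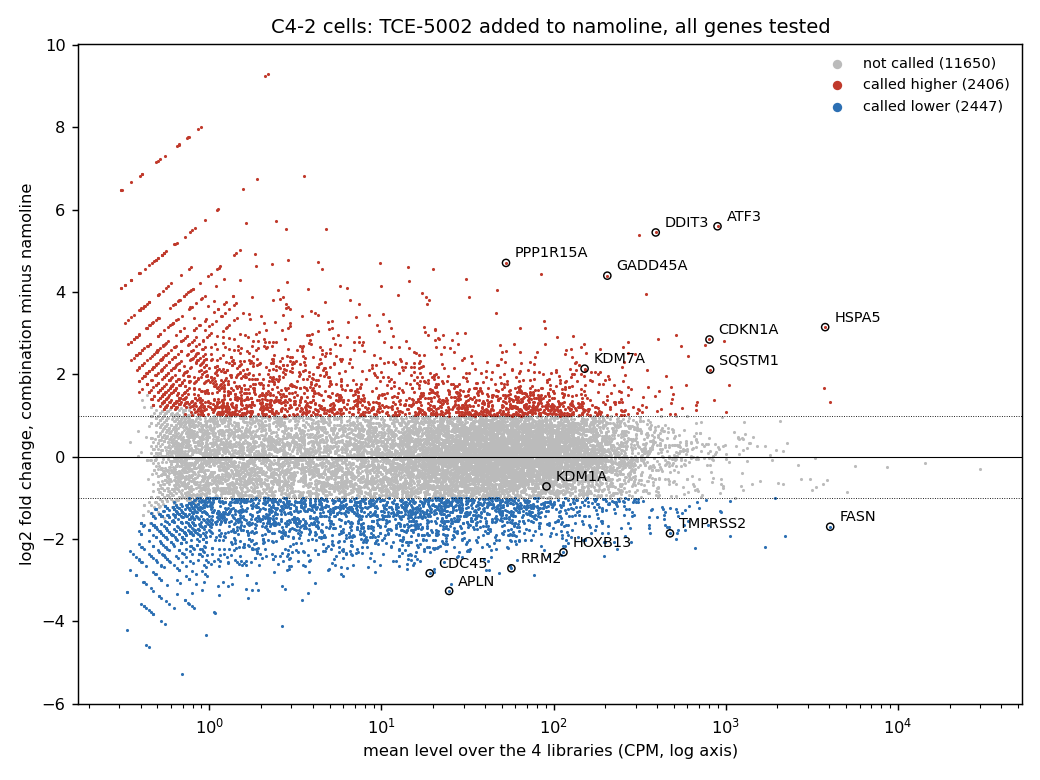
Each point is 1 of the 16503 genes tested, with its mean level over the 4 libraries on the x axis (CPM, log axis) and the log2 fold change of the combination against namoline on the y axis; red and blue mark genes called higher (2406) and lower (2447), dotted lines mark a 2-fold change, and circles mark genes named in the text. The upper tail reaches further than the lower one, with ATF3 and DDIT3 above 5 on the y axis at mean levels over 100 CPM, and rows of points at the left are genes with few counts.

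Of the demethylases that TCE-5002 is described as inhibiting, KDM7A and, more weakly, PHF8 and KDM2A, the mRNA of KDM7A rose and the others were not called, and that of KDM1A was lower without reaching 2-fold. The KDM7A gene (chromosome 7, 140084746 to 140177035, GRCh38) was at 59.5 and 52.3 CPM with namoline and 231 and 263 CPM with the combination. Its libraries did not overlap between groups, and the log2 fold change was 2.14, SE 0.09, adjusted p = 1.09e-09. KDM1A (chromosome 1, 23019448 to 23083689) was at 108 and 119 CPM with namoline and 69.1 and 69 CPM with the combination, a log2 fold change of -0.72, SE 0.08, adjusted p = 3.84e-06, short of 2-fold. KDM1B, the other flavin-dependent demethylase, was at 60.2 and 55.1 against 83 and 83.3 CPM (log2 fold change 0.53, SE 0.08, adjusted p = 6.64e-05). PHF8, PHF2, KDM2A and KDM2B, the relatives of KDM7A, had log2 fold changes of -0.16 (adjusted p = 0.119), 0.16 (adjusted p = 0.0948), -0.03 (adjusted p = 0.757) and 0.01 (adjusted p = 0.958), none of them past the threshold. Of the 7 demethylases of these families 1 was called. The inhibitors act on the proteins, so these mRNA levels are no check of the inhibition itself. KDM2B overlaps RNF34 on the opposite strand.

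Other chromatin genes changed singly rather than as a class. Of 13 CoREST and KDM1A partner genes 1 was called higher, the zinc finger gene ZMYM2 (log2 fold change 1.05, SE 0.08, adjusted p = 7.86e-08), and 1 lower, HMG20B (log2 fold change -1.44, SE 0.12, adjusted p = 2.14e-07). ZMYM2 lost its call without namoline replicate 2 and with a GC correction, where it was at 0.87, and HMG20B overlaps MFSD12 on the opposite strand. The scaffold RCOR1 and the deacetylase HDAC2 were at log2 fold changes of 0.03 and -0.05. Of 12 other histone demethylases 2 were called higher (16.7%, near the 14.6% of all genes tested) and 0 lower. Both belong to the KDM3 family of H3 lysine 9 demethylases, whose remaining listed member, KDM3B, was at -0.15 and not called. KDM3A, which is also induced by hypoxia, was at 44.4 and 43.4 CPM with namoline and 139.9 and 154 CPM with the combination (log2 fold change 1.74, SE 0.08, adjusted p = 2.02e-09), and JMJD1C at 121 and 94 against 240.4 and 254 CPM (log2 fold change 1.20, SE 0.11, adjusted p = 3.58e-07). The histone methyltransferases gave 3 calls higher and 3 lower of 18, close to the background shares. EZH1, the lysine 27 methyltransferase of resting cells, rose with a log2 fold change of 1.63 (adjusted p = 4.75e-09), KMT2A with 1.33 and SETDB2 with 1.28. JARID2, an accessory subunit of the same complex as EZH1, fell with -1.31, and the heterochromatin enzymes SUV39H1 and SUV39H2 with -1.25 and -1.14. Without namoline replicate 2 SUV39H1 was at -0.90 and no longer called. EZH2, the partner of dividing cells, was at 71.2 and 80.3 against 87.6 and 88.6 CPM and was not called.

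Genes that maintain DNA methylation fell. All 3 maintenance genes of the list were called lower: UHRF1, which brings the methyltransferase to newly copied DNA, was at 22.6 and 30.1 CPM with namoline and 4.33 and 4.08 CPM with the combination (log2 fold change -2.64, SE 0.17, adjusted p = 2.61e-08). DNMT1, the maintenance methyltransferase, was at 163 and 203 against 79.6 and 70.6 CPM (log2 fold change -1.28, SE 0.10, adjusted p = 1.85e-07), and the helicase HELLS had a log2 fold change of -1.16, or -0.89 and no call without combination replicate 2. In all 4 of 8 genes were called lower and 0 higher, the fourth being TET1 at under 2 CPM. The de novo enzyme DNMT3A had a log2 fold change of 0.48 and was not called.

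**Figure D2:**
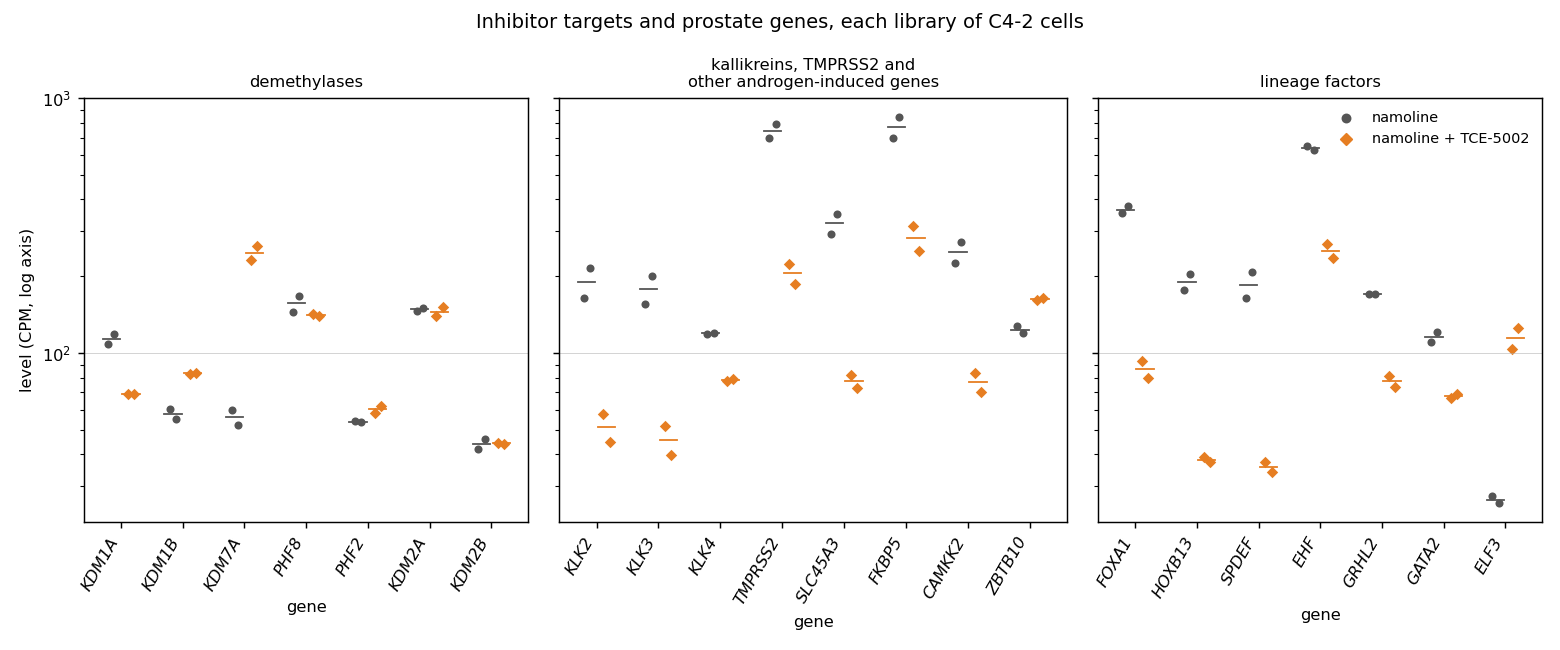
Levels in CPM (log axis) of the inhibitor target families, androgen-induced genes and lineage transcription factors in each C4-2 library; grey circles are the 2 namoline libraries, orange diamonds the 2 libraries with namoline and TCE-5002, and short lines the group means. KDM7A and ELF3 sit higher in the combination and KLK2, KLK3, TMPRSS2, FOXA1 and HOXB13 lower, with no overlap between groups.

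Androgen-induced genes and prostate lineage factors fell on top of namoline, although all 4 libraries received the same androgen. Of 22 androgen-induced genes 16 were called lower and 0 higher, against 14.8% and 14.6% of all genes tested, with a median log2 fold change of -1.68. KLK3, which encodes prostate-specific antigen, was at 156 and 201 CPM with namoline and 51.5 and 39.7 CPM with the combination (chromosome 19, 50854915 to 50860764). Both combination libraries lay far below the lower namoline library, and the log2 fold change was -1.97, SE 0.13, adjusted p = 3.06e-08. Its neighbour KLK2 was at 165 and 216 against 57.8 and 44.9 CPM (log2 fold change -1.89, SE 0.13, adjusted p = 4.61e-08), and KLK4 at 119 and 119.9 against 77.9 and 79 CPM, a log2 fold change of -0.61 that was not called. TMPRSS2, a surface serine protease, was at 696 and 792 against 224 and 186 CPM (log2 fold change -1.86, SE 0.11, adjusted p = 8.07e-09).

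The other androgen-induced genes spread widely. MAF, a transcription factor, fell from 5.69 and 8.73 CPM to 1.46 and 1.34 CPM (log2 fold change -2.36, SE 0.27, adjusted p = 4.70e-06), and ACP3, prostatic acid phosphatase, from 7.07 and 7.96 to 1.95 and 1.46 CPM (log2 fold change -2.13, SE 0.23, adjusted p = 2.11e-06). SLC45A3, which encodes prostein, was at 293 and 352 against 82.1 and 72.8 CPM (log2 fold change -2.06, SE 0.10, adjusted p = 2.42e-09). FKBP5, a cochaperone of steroid receptors, was at 698 and 841 against 316 and 250.3 CPM (log2 fold change -1.44, SE 0.12, adjusted p = 2.02e-07). At the other end stood members that were not called: ELL2 with a log2 fold change of -0.76, TPD52 with -0.38, NDRG1 with -0.12 and ZBTB10 with 0.40. ZBTB10 was the 1 member of the list whose value was above 0.

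Among 11 lineage transcription factors tested, 8 were called lower and 1 higher, and the median log2 fold change was -1.55. SPDEF, an ETS factor of secretory epithelium, was at 164 and 207 CPM with namoline and 37.3 and 34.2 CPM with the combination (log2 fold change -2.38, SE 0.11, adjusted p = 1.55e-09). HOXB13, the posterior homeobox factor of the prostate, was at 176 and 204 against 38.9 and 37.4 CPM (chromosome 17, 48724763 to 48729178; log2 fold change -2.32, SE 0.09, adjusted p = 5.15e-10). FOXA1, a pioneer factor that opens chromatin at androgen-responsive enhancers, was at 353 and 376 against 93.2 and 79.4 CPM (chromosome 14, 37589984 to 37596059; log2 fold change -2.08, SE 0.09, adjusted p = 1.14e-09). FOXA1 overlaps TTC6 on the opposite strand, which also fell, from 174 and 149.6 to 49.8 and 37.6 CPM, and the counting used no strand. The epithelial factors EHF and GRHL2 fell with log2 fold changes of -1.34 and -1.14, while GATA2 at -0.77 was not called. ELF3, an ETS factor of epithelia that responds to stress and inflammation, went the other way, from 27.4 and 25.8 CPM to 104 and 125 CPM (log2 fold change 2.10, SE 0.10, adjusted p = 1.90e-09).

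General epithelial markers were split. Of 15 luminal markers 8 were called lower, among them KLK2, KLK3 and HOXB13 counted above, KRT19 (log2 fold change -2.33) and the claudins CLDN3 (-1.34) and CLDN4 (-1.40). With a GC correction CLDN3 was at -0.88 and not called. The keratin KRT8 was at 320.5 and 374 against 531 and 535 CPM (log2 fold change 0.62) and KRT18 at 244 and 270.4 against 337 and 344 CPM (0.40), and neither was called, nor was E-cadherin (CDH1) at 0.07. ESRP1 was the 1 luminal marker called higher. The summed level of the luminal list was 2734 and 3005 CPM with namoline and 2434 and 2477 CPM with the combination. Of the markers of other cells, the basal list summed to 35 and 31 CPM with namoline and 16.8 and 13.4 CPM with the combination, nearly all of it from DST (27.7 and 23.7 against 14.5 and 10.0 CPM, log2 fold change -1.06) and ITGB4 (6.85 and 6.73 against 1.95 and 3.09 CPM, -1.44), both called lower, while the basal factor TP63 had counts in 1 library at 0.0541 CPM. DST lost its call without combination replicate 2 (-0.83) and without namoline replicate 1 (-0.95). The leukocyte list summed to 0.883 to 1.57 CPM. The neuroendocrine list summed to 12.9 and 13.1 CPM with namoline and 22.5 and 21.8 CPM with the combination, nearly all of it from ENO2, a glycolytic enzyme that is not confined to neuroendocrine cells. The fibroblast and mesenchymal list went in sum from 39.0 and 42.2 to 73.7 and 86.6 CPM, mostly COL1A1, which was called higher (log2 fold change 1.02), while VIM fell from 2.93 and 4.45 to 1.24 and 1.11 CPM and the repressor ZEB1 rose from 0.828 and 0.334 to 4.81 and 5.83 CPM (log2 fold change 3.18, SE 0.34, adjusted p = 2.20e-06, or 3.95 without namoline replicate 1). ZEB1 overlaps the more abundant ZEB1-AS1 on the opposite strand. The endothelial list went from 4.86 and 5.34 CPM to 0.379 and 0.467 CPM, nearly all of it VWF. PECAM1 and CDH5, the defining endothelial markers, were at or near 0 in all 4 libraries. The part of these genes in the results on lineage was not tested.

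The single genes ATF3 and DDIT3, which rose most among named coding genes, belong to the integrated stress response, the programme that cells run through the transcription factor ATF4 when amino acids are short, proteins misfold or mitochondria fail. Of 33 genes tested 18 were called higher (54.5%, against 14.6% of all genes) and 3 lower, and the median log2 fold change was 1.17. ATF3, a stress-induced transcription factor (chromosome 1, 212565334 to 212620777), was at 34.5 and 37.7 CPM with namoline and 1710 and 1803 CPM with the combination. That was the largest log2 fold change among coding genes at or above 10 CPM that the rule named, 5.60, SE 0.11, adjusted p = 1.91e-12. DDIT3, the pro-apoptotic factor CHOP (chromosome 12, 57516588 to 57520517), was at 19.1 and 16 against 764 and 770.3 CPM (log2 fold change 5.45, SE 0.11, adjusted p = 1.91e-12). DDIT3 overlaps MARS1 on the opposite strand, which was itself called higher. PPP1R15A, the phosphatase subunit that ends the response, was at 3.42 and 4.34 against 97.3 and 107 CPM (log2 fold change 4.71, SE 0.12, adjusted p = 2.42e-11), and FGF21, a secreted stress hormone, at 0.221 and 0.167 against 5.52 and 5.54 CPM (log2 fold change 4.78, SE 0.36, adjusted p = 8.00e-08). FGF21 was near the floor with namoline and passed the filter only through the combination libraries, so its call could only be higher.

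The branches of the response differed. All 5 feedback genes rose, with log2 fold changes of 4.71 (PPP1R15A), 2.80 (CHAC1, which degrades glutathione), 2.66 (TRIB3, a pseudokinase), 2.42 (SESN2) and 1.33 (DDIT4, an inhibitor of mTORC1). The mRNA of ATF4 itself was at 312 and 279 against 465 and 506 CPM, a log2 fold change of 0.72 that was not called; ATF4 is controlled mostly at translation, which these data do not measure. Of 8 factors 5 rose, among them CEBPG, a partner of ATF4 (log2 fold change 2.14), while ATF5 fell from 29.7 and 33.5 to 11 and 13.6 CPM (log2 fold change -1.37, SE 0.13, adjusted p = 9.10e-07). Amino acid supply was split. ASNS, asparagine synthetase, rose with 1.17, SLC3A2, the heavy chain shared by several amino acid exchangers, with 2.72 and its cystine partner SLC7A11 with 1.65. SLC7A5, the leucine partner of the same heavy chain, fell from 219 and 241 to 98.8 and 112 CPM (log2 fold change -1.12, SE 0.09, adjusted p = 1.29e-07). In serine synthesis PSPH fell (-1.29), and PSAT1 (-0.85) and PHGDH (-0.68) were not called.

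Aminoacyl-tRNA synthetases, the enzymes that load amino acids onto tRNA and are in part driven by ATF4, were likewise divided. Of 20 cytosolic enzymes 6 were called higher and 0 lower, with a median of 0.41. AARS1 was at 281 and 263 CPM with namoline and 858 and 953 CPM with the combination (log2 fold change 1.74, SE 0.09, adjusted p = 4.52e-09), and SARS1 at 246 and 212 against 722 and 753 CPM (log2 fold change 1.69, SE 0.09, adjusted p = 6.94e-09). GARS1, CARS1, YARS1 and MARS1 rose with log2 fold changes of 1.52, 1.51, 1.48 and 1.14. QARS1, VARS1 and FARSA had values below 0 (-0.93, -0.56 and -0.41) and were not called.

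Promoter sequence is shown for stress genes that rose and whose window holds the element bound by ATF4 with C/EBP partners. The element was searched as TGATGNAAN on both strands in the 250 bases before each RefSeq gene start (GRCh38.p14). It was found in 4 of 28 listed stress response promoters (14.3%) and in 2 of 16 synthetase promoters (12.5%), against 3.18% of 27305 promoters. In the stretches below, on the strand of the gene and 5′ to 3′, the capitals mark the match, for ATF3 (chr1:212565157-212565284, plus strand), FGF21 (chr19:48755409-48755523, plus strand) and AARS1 (chr16:70289626-70289754, minus strand). In FGF21 and AARS1 the element is on the other strand.
ATF3: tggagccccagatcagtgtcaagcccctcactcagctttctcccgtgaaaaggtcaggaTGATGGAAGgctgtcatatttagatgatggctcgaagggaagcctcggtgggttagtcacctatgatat
FGF21: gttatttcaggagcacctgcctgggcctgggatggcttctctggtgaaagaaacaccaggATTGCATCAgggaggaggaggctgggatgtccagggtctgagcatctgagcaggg
AARS1: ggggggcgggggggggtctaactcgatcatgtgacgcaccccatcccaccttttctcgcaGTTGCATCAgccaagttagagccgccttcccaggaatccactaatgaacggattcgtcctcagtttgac
The match lies 191 bases before the start in ATF3, 55 in FGF21 and 188 in AARS1, counted to its first base. A match is a description of the letters and not a measured binding site, and genes without one may hold other forms of the element or sites outside the window.

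The unfolded protein response of the endoplasmic reticulum rose through selected chaperones and all its listed sensors. Of 22 genes 9 were called higher (40.9%) and 0 lower. HSPA5, the master chaperone BiP, was at 773 and 758 CPM with namoline and 6600 and 7011 CPM with the combination (log2 fold change 3.15, SE 0.12, adjusted p = 2.87e-10). DNAJB9, its cochaperone, was at 37.9 and 40.4 against 240.2 and 259.5 CPM (log2 fold change 2.67, SE 0.09, adjusted p = 1.33e-10). The sensors ERN1 and ATF6 and the factor XBP1 rose with log2 fold changes of 2.07, 1.07 and 1.33, the oxidase ERO1B with 1.90 and the degradation gene HERPUD1 with 1.87. Without namoline replicate 2 ATF6 was at 0.98 and with a GC correction at 0.97, not called in either. Calreticulin (CALR) and the disulfide isomerases PDIA3, PDIA4 and PDIA6 were at log2 fold changes of -0.01, -0.02, 0.01 and 0.05. Heat shock chaperones of the cytosol and mitochondria did not follow: of 11 tested, 0 were called higher and 1 lower, the constitutive HSPA8 from 2596 and 2565 to 1266 and 1310 CPM (adjusted p = 9.16e-07). HSPA8 sat at the 2-fold limit, with a log2 fold change of -0.97 and no call without combination replicate 1.

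Other protective programmes moved in part. Autophagy genes gave 6 calls higher of 17 (35.3%, against 14.6% of all genes tested) and 0 lower. SQSTM1, the cargo receptor p62, was at 300.3 and 307 against 1283 and 1359 CPM (log2 fold change 2.12, SE 0.09, adjusted p = 8.79e-10), and the autophagosome proteins MAP1LC3B and GABARAPL1 rose with 2.01 and 1.86. The lysosomal genes LAMP1 and CTSD were at 0.25 and -0.33 and were not called. Of 17 NRF2 and glutathione genes 6 were called higher (35.3%) and 1 lower (5.88%). Those higher included HMOX1, heme oxygenase (6.24 and 5.79 against 23.5 and 26.7 CPM, log2 fold change 2.06), and the ferritin chains FTH1 (1.66) and FTL (1.38). NQO1, a common readout of NRF2, had a log2 fold change of -0.73 and was not called, and PGD of the pentose phosphate pathway was called lower (-1.03). The metallothioneins MT1X and MT2A rose with 1.76 and 1.29, 4 of 8 genes of that list being tested.

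**Figure D3:**
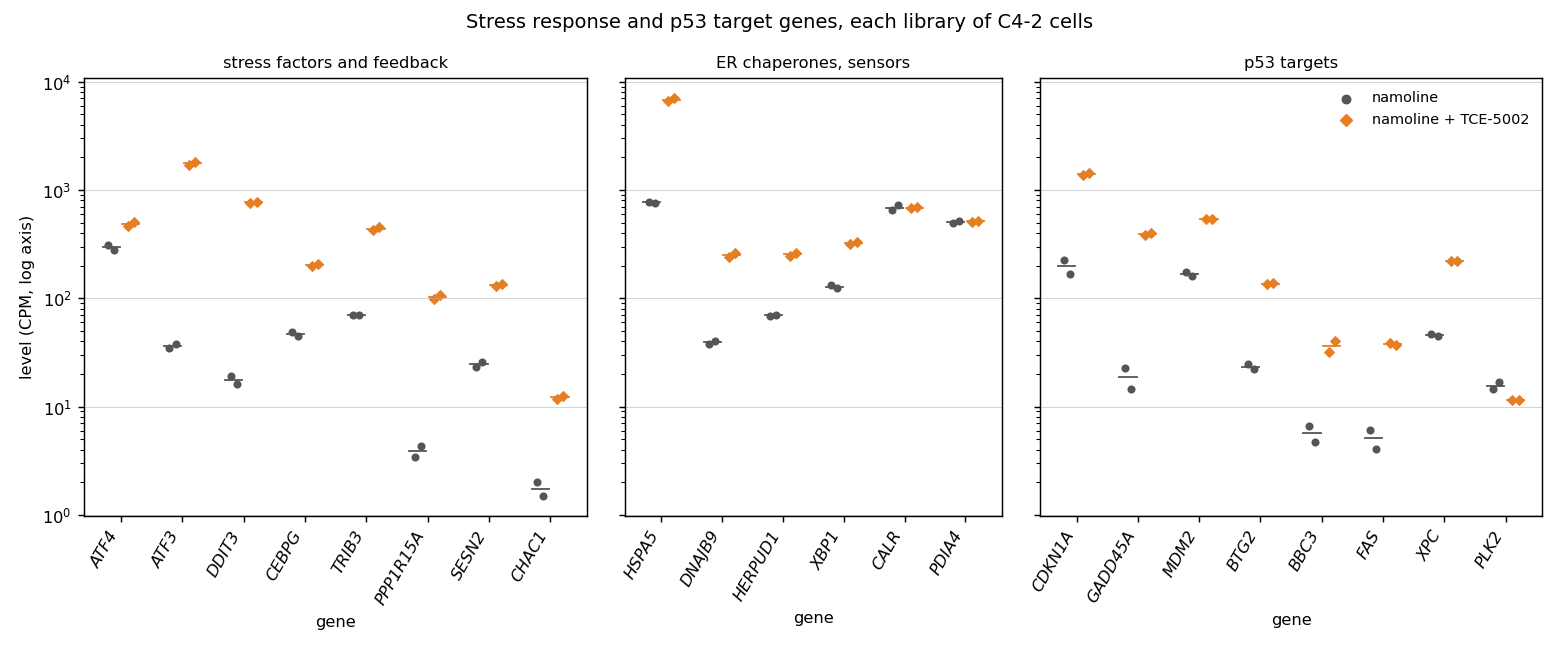
Levels in CPM (log axis) of stress response, endoplasmic reticulum and p53 target genes in each C4-2 library, with grey circles for namoline, orange diamonds for namoline and TCE-5002, and short lines for group means. ATF3, DDIT3, HSPA5 and CDKN1A show no overlap between groups, while CALR and PDIA4 lie at the same level in both.

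Targets of the tumour suppressor p53 formed the list with the highest median. Of 29 tested, 22 were called higher (75.9%, against 14.6% of all genes) and 0 lower, with a median log2 fold change of 1.63. CDKN1A, the CDK inhibitor p21, was at 224 and 169 CPM with namoline and 1387 and 1439 CPM with the combination (log2 fold change 2.85, SE 0.12, adjusted p = 1.02e-09). GADD45A, a growth arrest gene, was at 22.7 and 14.4 against 387 and 398 CPM (log2 fold change 4.40, SE 0.15, adjusted p = 1.68e-10). GADD45A and the death gene BBC3 also respond to ATF4 and CHOP, so the list is not specific to p53.

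The rise covered each role in the list. Among arrest genes 6 of 7 rose, and PLK2, at 14.5 and 16.7 against 11.6 and 11.5 CPM, was the 1 member of the whole list below 0 (log2 fold change -0.44). MDM2, the ubiquitin ligase that limits p53, was at 174 and 159 against 539 and 538 CPM (log2 fold change 1.69, SE 0.08, adjusted p = 2.60e-09), and PHLDA3 and ZMAT3 rose with 2.37 and 1.64. In repair, XPC and DDB2, which find ultraviolet damage, rose with 2.27 and 1.81. Of 10 death genes 7 rose: the receptor FAS went from 6.13 and 4.06 to 38.3 and 37.1 CPM (log2 fold change 2.89, SE 0.16, adjusted p = 6.36e-09; FAS overlaps the less abundant ACTA2 on the opposite strand) and BBC3, which encodes PUMA, from 6.63 and 4.67 to 32.2 and 39.9 CPM (log2 fold change 2.67, SE 0.17, adjusted p = 1.85e-08). BAX and APAF1 were at 0.91 and 0.23 and were not called, although BAX reached 1.01 and a call without combination replicate 1.

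In the wider apoptosis machinery calls fell on triggers, with 4 of 8 BH3-only genes and 2 of 3 receptors called higher. Among these, BBC3 and FAS were already counted with the p53 targets. Of 26 BCL2 family, receptor and caspase genes 6 were called higher and 1 lower. These shares were 23.1% and 3.85%, against 14.6% and 14.8% of all genes tested. The BH3-only genes PMAIP1 (NOXA) and BMF rose with log2 fold changes of 1.75 and 1.25. HRK, another BH3-only gene, had no counts with namoline and 53 counts over both combination libraries, at least 17.8-fold higher against a floor of 3 counts over the namoline group. HRK passed the filter on low counts only through the combination libraries, so its call could only be higher. BOK, a BAX relative, fell with -1.20, or -0.90 and no call with a GC correction. The survival genes MCL1, BCL2L2 and BCL2L1 were at 0.04, 0.17 and 0.20, and none of 4 caspase genes and APAF1 was called.

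Cell division genes fell together. Of 40 G2/M and mitosis genes 36 were called lower (90%, against 14.8% of all genes) and 0 higher. The median log2 fold change was -1.84 and each of the 40 values was below 0. In bulk RNA fewer dividing cells and less RNA per dividing cell cannot be told apart. AURKB, the chromosomal passenger kinase, was at 17.4 and 22.4 CPM with namoline and 4.22 and 2.68 CPM with the combination (log2 fold change -2.52, SE 0.20, adjusted p = 1.72e-07). BIRC5 (survivin), its partner, was at 53.7 and 79.4 against 13.5 and 10.2 CPM (log2 fold change -2.49, SE 0.17, adjusted p = 4.73e-08), and the kinesin KIF20A at 38.6 and 54.9 against 10.2 and 7.41 CPM (log2 fold change -2.40, SE 0.18, adjusted p = 7.84e-08). CDK1, the kinase of mitotic entry, was at 179.5 and 215 against 52.2 and 39.9 CPM (log2 fold change -2.10, SE 0.12, adjusted p = 8.86e-09). All 7 listed mitotic kinases and all 5 mitotic exit genes were called. CDC25B at -0.15, KIF23 at -0.58, INCENP at -0.77 and NUSAP1 at -0.91 were not; without namoline replicate 1 INCENP was at -1.01 and NUSAP1 at -1.04, both called. KIF20A overlaps the more abundant BRD8 and CDC23 on the opposite strand. The namoline libraries differed here, the second being the higher in every gene just named, and the median of the list moved between replicates with an SD of 0.30 on the log2 scale, well under the change.

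The cell cycle homology region, searched as TTTGAA on both strands in the 250 bases before the start, was found in 18 of 34 listed G2/M promoters (52.9%), against 13.6% of all 27305 promoters. The homology region is known as the site through which the DREAM and MuvB complexes hold and release late cell cycle genes. A match to its letters is not a measured binding site. Below are 2 fallen genes that hold it, with the match in capitals, KIF4A (chrX:70290010-70290089, plus strand) and CDK1 (chr10:60778110-60778235, plus strand).
KIF4A: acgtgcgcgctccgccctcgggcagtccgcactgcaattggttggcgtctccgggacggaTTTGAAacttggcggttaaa
CDK1: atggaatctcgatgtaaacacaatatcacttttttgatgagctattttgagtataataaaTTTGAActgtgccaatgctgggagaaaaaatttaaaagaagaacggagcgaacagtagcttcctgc
The match in KIF4A begins 34 bases before the start and that in CDK1 161 bases before it. KIF4A, a chromosome kinesin, was at 33.5 and 44.7 CPM with namoline and 11.1 and 6.88 CPM with the combination (log2 fold change -2.11, SE 0.19, adjusted p = 4.46e-07), and PDZD11 on the opposite strand overlaps it. Of 30 called G2/M genes with a listed promoter, 16 hold the site.

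DNA replication genes fell, most of all those that prepare and start replication. Of 43 tested, 26 were called lower (60.5%) and 0 higher, with a median of -1.21. The licensing genes, which load the helicase onto origins, gave 9 of 10 calls with a median of -1.73, and the firing genes, which start it, 5 of 6 with -1.95. Polymerase subunits gave 4 of 9 calls and fork proteins 4 of 13, the latter with a median of -0.81. CDC45, which completes the active helicase, was at 28.7 and 38.4 CPM with namoline and 6.38 and 2.92 CPM with the combination (log2 fold change -2.83, SE 0.24, adjusted p = 2.63e-07), the second combination library being the lower and the value -3.52 without the first. RRM2, the regulated subunit of ribonucleotide reductase, was at 83.3 and 114 against 17.7 and 12.4 CPM (log2 fold change -2.71, SE 0.16, adjusted p = 1.32e-08). Its partner RRM1 was at 129 and 146 against 120.2 and 122 CPM, a log2 fold change of -0.18 that was not called. Thymidine kinase (TK1) and MCM10 fell with -2.66 and -2.43. POLE, the leading strand polymerase, had a value above 0 (0.67) and was not called.

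The E2F site, searched as TTTCCCGC or TTTGGCGC on both strands, was found in 11 of 38 replication promoters (28.9%), against 1.96% of all. Of 22 called replication genes with a listed promoter, 6 hold the site. Genes that were not called hold it too, among them POLE, whose value was above 0. Here too a match describes the letters and not measured binding. MCM3 (chr6:52284882-52284976, minus strand) and MCM6 (chr2:135876466-135876593, minus strand) are shown because they were called and hold the site outside any annotated exon; 2 genes with larger changes than MCM6, CDT1 and GINS2, were passed over since an exon of a gene covers their match.
MCM3: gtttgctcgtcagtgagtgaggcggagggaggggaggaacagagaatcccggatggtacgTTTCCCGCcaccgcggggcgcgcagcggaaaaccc
MCM6: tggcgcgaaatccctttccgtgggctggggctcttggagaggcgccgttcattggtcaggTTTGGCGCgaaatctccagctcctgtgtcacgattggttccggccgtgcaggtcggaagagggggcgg
MCM3 was at 89.7 and 111 against 29.4 and 19.9 CPM (log2 fold change -2.03, SE 0.15, adjusted p = 6.58e-08) and MCM6 at 85.2 and 94 against 39.7 and 31.3 CPM (log2 fold change -1.33, SE 0.11, adjusted p = 1.63e-07). MCM6 holds a second match that begins 152 bases before the start, of which the stretch shown holds the last bases in lower case.

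**Figure D4:**
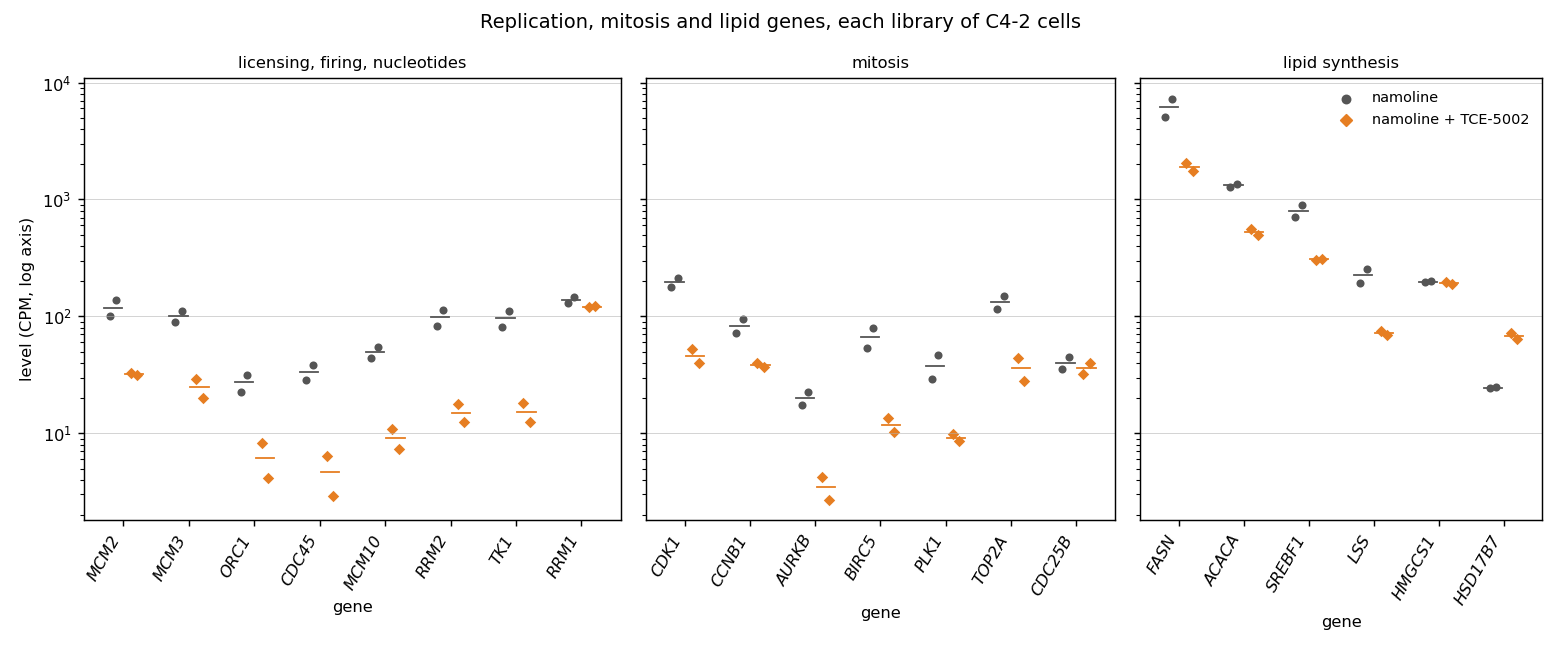
Levels in CPM (log axis) of replication, mitosis and lipid synthesis genes in each C4-2 library, with grey circles for namoline, orange diamonds for namoline and TCE-5002, and short lines for group means. CDC45, RRM2, AURKB, BIRC5, FASN and LSS lie lower in both combination libraries, whereas CDC25B overlaps, HMGCS1 lies at one level and HSD17B7 lies higher.

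Regulators of the G1 to S step moved in both directions. CCND1, the cyclin D1 gene, was at 223 and 251 CPM with namoline and 61.1 and 54.7 CPM with the combination (log2 fold change -2.03, SE 0.09, adjusted p = 1.16e-09). The activating factors E2F1 and E2F2 fell with -2.28 and -2.52, and the inhibitors CDKN1A and CDKN1B (p27) rose, the latter from 51.8 and 52.3 to 131 and 140.0 CPM (log2 fold change 1.38, SE 0.08, adjusted p = 8.83e-09). CDKN2C, an inhibitor of CDK4 that E2F itself induces, fell with -1.80. RB1 and RBL2, which restrain E2F, were at 0.00 and 0.11. In all 6 of 19 were called lower and 3 higher (31.6% and 15.8%, against 14.8% and 14.6% of all genes tested). MYC was at 181 and 199.7 against 43.5 and 41.3 CPM (log2 fold change -2.16, SE 0.09, adjusted p = 5.09e-10).

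Homologous recombination and Fanconi genes, which are transcribed mostly in S phase, gave 13 calls lower and 2 higher of 26. EXO1, a nuclease of end resection, was at 22.3 and 26.8 CPM with namoline and 6 and 3.44 CPM with the combination (log2 fold change -2.37, SE 0.20, adjusted p = 2.53e-07). BRCA1 fell with -1.67 and BLM with -1.81 (-2.47 without combination replicate 1), while BRCA2 at -0.51 was not called. ATM, the kinase that senses double-strand breaks, rose from 85.6 and 80.3 to 214 and 205 CPM (log2 fold change 1.34, SE 0.08, adjusted p = 1.14e-08), and RBBP8 (CtIP), which starts resection, with 1.05, or 0.94 without namoline replicate 2 and 0.93 with a GC correction, with no call in either. NPAT lies opposite ATM and NBR2 opposite BRCA1, both at lower levels.

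Replication-dependent histone genes went against the rest of S phase. Of 30 that passed the filter, out of 65, 12 were called higher (40%) and 0 lower, against 14.6% and 14.8% of all genes tested. H1-6 was at 0.11 and 0.167 against 0.649 and 1.05 CPM, and H4C4 at 0.11 and 0.389 against 1.35 and 1.22 CPM. Such members passed the filter through the combination libraries, so their calls could only be higher. The linker histone gene H1-2 was at 115 and 97.1 CPM with namoline and 407 and 426 CPM with the combination (log2 fold change 1.98, SE 0.09, adjusted p = 1.69e-09), and H2BC26 at 2.15 and 1.78 against 13.1 and 10.7 CPM (log2 fold change 2.60, SE 0.21, adjusted p = 1.46e-07). Most mRNA of these genes ends in a stem-loop and not in a poly(A) tail, and the libraries were made from polyadenylated RNA, so the values describe the polyadenylated part. Many copies are near-identical, so single members are uncertain.

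Tubulin genes fell almost as one. Of 9 alpha and beta tubulin genes tested 8 were called lower, with a median log2 fold change of -1.68. TUBB was at 754 and 887 CPM with namoline and 241 and 236 CPM with the combination (log2 fold change -1.78, SE 0.10, adjusted p = 5.46e-09), and TUBA1B at 278 and 317 against 83.7 and 82.8 CPM (log2 fold change -1.84, SE 0.09, adjusted p = 1.76e-09). TUBB6 alone was not called, at 0.01. These genes have near-identical copies, and counts of single members are uncertain. Among actin-linked genes 4 of 10 were called higher (40%, against 14.6% of all genes tested) and 0 lower. One of them, ACTA2, was at 1.27 and 0.556 against 7.52 and 7.87 CPM. ACTA2 overlaps the more abundant FAS on the opposite strand, which also rose, and without strand their reads cannot be told apart. FLNA, the actin crosslinker filamin A, was at 234 and 251 against 1616 and 1800 CPM (log2 fold change 2.82, SE 0.10, adjusted p = 2.35e-10), and MYL9, a myosin light chain, at 0.552 and 0.0556 against 8.65 and 7.81 CPM (log2 fold change 4.73, SE 0.39, adjusted p = 2.15e-07). The value of MYL9 was 7.03 without namoline replicate 1 and 3.88 without replicate 2. MYL9 passed the filter on low counts through the combination libraries, so its call could only be higher. CCN1, a secreted target of YAP, rose with 3.10, and VCL and TAGLN at 0.11 and 0.24 were not called.

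Fatty acid synthesis genes fell, as did a few cholesterol genes. Of 8 fatty acid genes 6 were called lower and each of the 8 values was below 0. FASN, fatty acid synthase, was at 5075 and 7297 CPM with namoline and 2055 and 1765 CPM with the combination (log2 fold change -1.70, SE 0.16, adjusted p = 6.15e-07). SREBF1, the factor that drives the pathway, was at 711 and 889 against 306 and 312 CPM (log2 fold change -1.37, SE 0.10, adjusted p = 1.04e-07), and ELOVL6, FADS2 and ACLY fell with -2.20, -1.92 and -1.42. Of 24 cholesterol genes 5 were called lower and 1 higher (20.8% and 4.17%). LSS, which forms lanosterol, fell with a log2 fold change of -1.64, SE 0.11, adjusted p = 4.16e-08, and the sterol isomerase EBP was at 84.9 and 91 against 37.9 and 38.6 CPM (log2 fold change -1.20, SE 0.08, adjusted p = 4.26e-08). The entry enzyme HMGCS1, a classic target of SREBF2, was at -0.03, and HSD17B7 rose with 1.48. The sterol element, searched as TCACNCCAC, was in 1 of 17 cholesterol promoters (5.88%), that of SREBF2, against 0.875% of all.

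**Figure D5:**
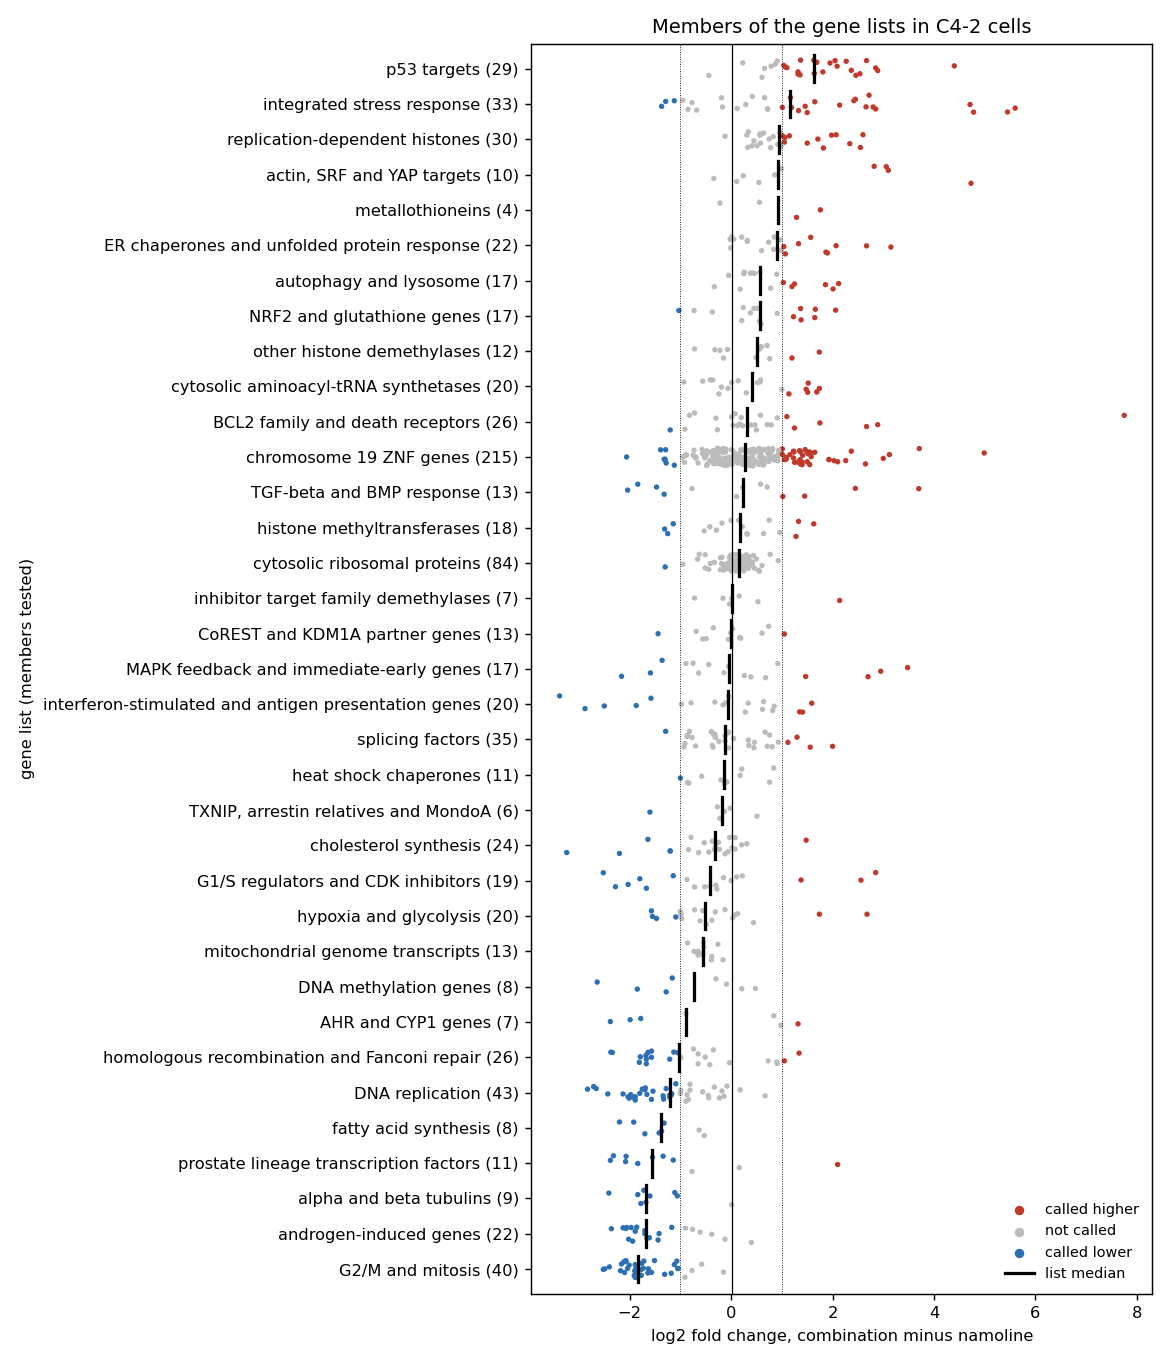
Log2 fold change of the combination against namoline (x axis) for each tested member of the 35 gene lists (y axis, number tested in brackets, ordered by median); red and blue points were called higher and lower, grey points were not called, black bars are list medians, dotted lines mark a 2-fold change and the solid line the median of all genes. The p53 and stress lists sit highest and the mitosis, androgen-induced and tubulin lists lowest, with medians of 1.63, 1.17, -1.84, -1.68 and -1.68.

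Signalling readouts showed single genes in both directions. Of 17 MAPK feedback and immediate-early genes 4 were called higher (23.5%) and 3 lower (17.6%), against 14.6% and 14.8% of all genes tested. DUSP5, a nuclear ERK phosphatase, rose from 1.77 and 1.56 to 18.1 and 19.2 CPM (log2 fold change 3.48, SE 0.18, adjusted p = 3.87e-09) and the ERK-induced factor ETV5 from 1.33 and 1.22 to 10.3 and 9.51 CPM (log2 fold change 2.95, SE 0.22, adjusted p = 6.71e-08), whereas DUSP4 fell from 15.5 and 17 to 6.22 and 4.49 CPM (log2 fold change -1.59, SE 0.17, adjusted p = 2.27e-06). EGR1 was called lower at -1.36, but lost the call without combination replicate 2 (-0.80; it was -2.38 without replicate 1) and without either namoline library (-1.37 and -1.36). The TGF-beta and BMP list gave 4 calls each way of 13 (30.8% each). GDF15, a secreted member of the family that stress also induces, was at 181 and 192 against 958 and 1085 CPM (log2 fold change 2.45, SE 0.10, adjusted p = 5.03e-10), and ID4 rose with 3.70. The matrix gene FN1 fell with -2.04 and SMAD6, an inhibitor of BMP signalling, with -1.84. The interferon list gave 3 calls higher and 5 lower of 20 (15% and 25%), the share called higher being near that of all genes. Its antiviral genes OAS3 and IFI6 fell with -2.50 and -1.87, and the antigen presentation gene HLA-B rose with 1.41.

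In metabolism VEGFA, the angiogenic factor, rose, and of 20 hypoxia and glycolysis genes 2 were called higher (10%) and 4 lower (20%), near the shares of all genes. VEGFA was at 134 and 161 CPM with namoline and 868 and 1023 CPM with the combination (log2 fold change 2.68, SE 0.11, adjusted p = 8.35e-10). PKM, pyruvate kinase, was at 815 and 987 against 305 and 310.4 CPM (log2 fold change -1.55, SE 0.10, adjusted p = 2.48e-08), and LDHA, lactate dehydrogenase, at 489 and 569.8 against 184 and 198 CPM (log2 fold change -1.47, SE 0.09, adjusted p = 2.08e-08). The phosphofructokinase gene PFKP fell with -1.09. The hypoxia gene EGLN3 fell with -1.57, so hypoxia targets did not share 1 direction. TXNIP, an inhibitor of glucose uptake, fell from 306 and 266 to 97.4 and 92 CPM (log2 fold change -1.60, SE 0.09, adjusted p = 6.62e-09). CYP1A1, the readout of the aryl hydrocarbon receptor, fell from 11 and 13.3 to 2.92 and 3.21 CPM (log2 fold change -1.99, SE 0.18, adjusted p = 6.08e-07), and 3 of 7 genes of its list were called lower and 1 higher.

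Among RNA and protein synthesis genes most stayed under 2-fold. Of 35 splicing factors 4 were called higher and 1 lower (11.4% and 2.86%), both shares under the 14.6% and 14.8% of all genes tested. The kinases CLK1 and CLK4, which phosphorylate SR proteins, rose from 34.3 and 34.9 to 135 and 143 CPM and from 17.1 and 18.2 to 42.6 and 44.3 CPM, ESRP1, the epithelial splicing regulator, went from 57.1 and 55.7 to 165 and 169 CPM (log2 fold change 1.56, SE 0.08, adjusted p = 2.58e-09), and HNRNPA1 fell with -1.29. None of the 13 SR proteins was called. Of 84 cytosolic ribosomal protein genes 1 was called, the muscle-type copy RPL3L at under 4 CPM, named after its values were seen. The 13 mitochondrial mRNAs were all below 0 with a median of -0.55 and none was called. The zinc finger genes of chromosome 19, a clustered family of mostly KRAB repressors, gave 39 calls higher and 7 lower of 215. These shares were 18.1% and 3.26%, against 14.6% and 14.8% of all genes tested. ZNF841 was at 17.7 and 19.1 CPM with namoline and 157 and 162 CPM with the combination (log2 fold change 3.12, SE 0.09, adjusted p = 5.01e-11), and ZNF554 at 3.09 and 2.11 against 36.5 and 31.9 CPM (log2 fold change 3.71, SE 0.17, adjusted p = 1.60e-09).

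Beyond the lists, the coding genes with the largest rises joined stress genes to genes of signalling and the cytoskeleton. Besides ATF3, DDIT3, PPP1R15A and GADD45A they included GADD45B (4.32), the stress kinase regulator, and UPP1, uridine phosphorylase (4.04). FYN, a SRC family kinase, was at 0.994 and 0.445 CPM with namoline and 17.5 and 20.5 CPM with the combination (log2 fold change 4.70, SE 0.25, adjusted p = 4.98e-09, or 5.38 without namoline replicate 1). FGF13 was at 2.1 and 1.11 against 39.8 and 36.9 CPM (log2 fold change 4.57, SE 0.19, adjusted p = 8.35e-10), and TPM4, an actin-binding tropomyosin, at 7.9 and 6.84 against 158 and 164 CPM (log2 fold change 4.45, SE 0.10, adjusted p = 6.22e-12). SIPA1L2, a RAP GTPase regulator, was at 43.6 and 40.3 against 617 and 681 CPM (log2 fold change 3.95, SE 0.10, adjusted p = 1.27e-11). MOV10L1 (4.28), a helicase of the germline piRNA pathway, PLEKHG1 (4.14), the lysosomal LAMP3 (3.97) and KSR1 (3.94), a scaffold of the RAF cascade, completed the set with DIO3. Leaving out 1 namoline library gave 3.63 to 5.47 for MOV10L1, 3.70 to 4.77 for PLEKHG1 and 3.40 to 4.91 for LAMP3.

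DIO3, the deiodinase that inactivates thyroid hormone (chromosome 14, 101561351 to 101563452), was uneven with namoline, at 23.8 and 5.23 CPM, and at 594 and 636 CPM with the combination (log2 fold change 5.40, SE 0.37, adjusted p = 3.84e-08). The antisense gene DIO3OS beside it, whose annotated span does not overlap DIO3, rose too, from 1.82 and 0.389 to 24.9 and 29.9 CPM (log2 fold change 4.62, SE 0.30, adjusted p = 2.61e-08). With 1 namoline library left out, the log2 fold change of DIO3 was 6.87 without replicate 1 and 4.68 without replicate 2, and that of DIO3OS 6.10 without replicate 1 and 3.89 without replicate 2. The other long non-coding RNAs that rose most were ERVE-1 (4.15) and NAPA-AS1 (4.09), and those that fell most were FAM201A (-2.33), UICLM (-2.24) and LINC02197 (4-fold lower), of which FAM201A overlaps ANKRD18A and UICLM overlaps CROCC2 on the opposite strand. NAPA-AS1 overlaps NAPA, which was far more abundant and also higher in the combination, and without strand their reads cannot be told apart.

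The coding genes that fell most held secreted factors and receptors as well as replication genes. APLN, which encodes the peptide apelin, was at 37.4 and 52.2 CPM with namoline and 4.49 and 4.84 CPM with the combination (chromosome X, 129645259 to 129654937; log2 fold change -3.26, SE 0.17, adjusted p = 4.69e-09). RAMP1, a subunit of the CGRP receptor, was at 134 and 136 against 17.6 and 19.3 CPM (log2 fold change -2.87, SE 0.09, adjusted p = 1.06e-10), and IGFBP2, an IGF carrier, at 34.6 and 36 against 4.65 and 5.48 CPM (log2 fold change -2.80, SE 0.14, adjusted p = 2.19e-09). ACKR3, a scavenging receptor of the chemokine CXCL12, fell with -2.73 and WNT10B, a WNT ligand, with -2.71. LRRC26 (-3.08), an auxiliary subunit of BK potassium channels, overlaps GRIN1 on the opposite strand. The proliferation genes in the set were CDC45 and RRM2, described above, MYBL2 (-2.75), a factor of the late cell cycle, and the kinesin KIFC1 (-2.73). TNFAIP2 (-2.86), METTL7A (-2.83) and FNDC10 (-2.75) completed it, with SFTPA2 (-2.89) and TUBA3E (-2.81), which have near-identical copies.

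Called genes also differed in kind. Long non-coding RNA genes made up 23.6% of genes called higher (569 of 2406) and 14.4% of those called lower, against 14% of all genes tested. A gene near the floor in 1 group could pass the filter through the other group, and then be called only in that direction. How far this shaped the shares was not tested. Coding genes made up 58.6% and 79.5%, against 77.5%. The median genomic span of coding genes was 33.5 kb for those called higher, 32.3 kb for those called lower and 32.8 kb for all. The GC content of coding genes went with direction, with medians of 48.6%, 52.5% and 49.5% in the same order. In coding genes under 42% GC, 12.3% were called higher and 9.89% lower, and at 54% GC or above 9.57% and 19%. GC content also went with the difference between the 2 namoline libraries (Spearman rho across genes -0.515) and between the 2 combination libraries (-0.253), and with the log2 fold change (-0.146), where genes are not independent replicates. With a GC correction 2376 genes were called higher and 2417 lower. By chromosome, the share of coding genes called lower ran from 11.1% on chromosome 19 to 20.4% on chromosome 4, and the share called higher from 7.4% on chromosome 4 to 14.9% on chromosome 6.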

How the data were processed

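Polyadenylated RNA of C4-2 cells was sequenced as paired ends. According to the methods, the authors trimmed reads with TrimGalore, aligned them to GRCh38 with STAR and counted fragments per gene with featureCounts 1.5.0 on Ensembl 83. The deposited values are raw counts, 1 file a library, counted without a strand option per the file headers, and reads where genes overlap on opposite strands are therefore not separated. Groups were taken from library titles, and the members and gene lists were chosen with earlier results of these data known.

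The 4 libraries, with totals of 17416786 to 18336820 counts, were fitted with edgeR 4.0.16 in R 4.3.3 (filterByExpr, TMM factors, glmQLFit and glmQLFTest with group as the only term), and p-values were adjusted by the Benjamini-Hochberg method over 16503 of 60675 genes. A gene was called at an adjusted p under 0.05 if it also changed by 1 or more on the log2 scale. Standard errors were derived from each estimate and its F statistic. Simulated data with 200 of 16010 genes changed by 2 on the log2 scale gave 98% of them called, and 5 genes called without a change. The simulation changed far fewer genes than were called here, all by more than the 2-fold limit, and held no GC difference between replicates. Its figures therefore do not carry over to the reported calls. Replicate numbers were not used to pair the libraries in the reported fit.

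Named genes were 12 demethylase and prostate genes whatever their values, the 15 rising and 15 falling coding genes and 3 and 3 long non-coding genes with the largest changes at 10 CPM or more without overlap, and up to 4 called members a list in each direction at 5 CPM or more. Members named beyond these show a role or the spread of a list and were chosen after their values were seen. The counts of the lists include 7 genes that are not reported here. Alternatives covered normalisation, filters, tests (DESeq2 1.42.0 among them), samples in the fit, replicate block, GC correction and each library left out.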

Additional observations from a re-analysis of the deposited data

How the results depend on the processing

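The count of called genes was 2406 higher and 2447 lower. It was 5558 and 5478 at an adjusted p under 0.05 with no fold limit, and 1350 and 1272 when the test itself asked for a change over 2-fold, which differ by construction. Leaving out 1 library at a time gave 2255 to 2449 higher and 2194 to 2506 lower. DESeq2 gave 2032 and 2092, and a filter at a mean of 1 CPM 1830 and 1961. The deviations of same-numbered libraries had a correlation of -0.0357 across genes, which with 2 libraries a group cannot settle whether they were paired. With the replicate block 2378 genes were called higher and 2422 lower. The median of the AHR and CYP1 list, -0.89 over 7 genes, was 0.91 under the stricter filter, which left fewer of them to test. Of 361 called list members 318 kept the call in every alternative in which they were tested, and none reversed. With 2 libraries a group, p-values rest on variances shared across genes.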
